A study of Homo sapiens with 6 samples.

Results

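Molecular chaperones bind proteins that are not yet folded, or have come unfolded, and keep them from aggregating while they reach their working shape. HSP70 proteins and their DNAJ partners bind short exposed stretches of a client, HSP90 proteins act later on nearly folded kinases and receptors, small heat shock proteins hold unfolding clients without using ATP, and the barrel-shaped chaperonins enclose a client while it folds. Many of these genes are switched on together by the heat shock factor HSF1 when unfolded protein builds up, while others are expressed in every growing cell. In stratified epithelia the small heat shock protein HSPB1 is abundant and is known to increase with keratinocyte differentiation.

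The genes described here are 52 chaperones of the cytosol, nucleus and mitochondria with their co-chaperones and regulators, chosen by name from the 58735 genes of the deposited table, and all 52 were found there. They were measured by paired-end RNA sequencing in HOK-16B cells, an immortalized keratinocyte line from the human mouth. In 3 libraries the cells were labelled as treated with CBD (cannabidiol, a cannabis compound that does not intoxicate) and in 3 as treated with vehicle, and the series description adds that both groups received an inflammatory stimulus after that pretreatment. The labels name neither the stimulus nor a dose or a time, no unstimulated cells were analysed here, and all libraries carry the name of a single cell line, so the comparison asks how CBD differed from vehicle in stimulated cells of that line. Whether replicates came from separate cultures is not stated, so p-values here cover only the spread among the 6 libraries, which may be technical.

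Libraries held 19010494 to 22158614 counted fragments with CBD and 18213784 to 21200871 with vehicle. All 10 keratinocyte markers examined were present (KRT5 was the highest, at a mean of 3330 FPKM, fragments per kilobase of gene length relative to library depth), with a summed level of 12219 to 12810 FPKM in CBD libraries and 9885 to 11719 FPKM in vehicle libraries. Of 7 fibroblast markers only COL1A1 exceeded a mean of 1 FPKM; the summed list stood at 9.31 to 9.41 FPKM with CBD and 7.40 to 8.14 FPKM with vehicle. The 6 melanocyte markers summed to 2.07 to 2.11 FPKM with CBD and 1.62 to 2.05 FPKM with vehicle. The 6 immune markers, nearly all of it from CD14, summed to 2.22 to 3.20 FPKM with CBD and 2.17 to 3.06 FPKM with vehicle, and the 5 endothelial markers to at most 0.159 FPKM with CBD and 0.141 FPKM with vehicle. TYR and CD3E were at 0 in every library. The part of these marker differences in the results below was not tested. In bulk RNA, fewer cells of a type and less RNA per cell cannot be told apart. Transcript GC content per fragment was 50.7% to 50.8% in CBD libraries and 49.6% to 50.3% in vehicle libraries, and the groups did not overlap. Vehicle replicate 1 stood farthest from the others (first principal component 25.1, against -12.7 to -10.3 for CBD and -0.74 and 9.36 for the other vehicle libraries).

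The genes spanned a wide range of levels. The small heat shock protein gene HSPB1 was the most abundant of them in CBD libraries and in vehicle libraries, followed by the cytosolic HSP90 genes HSP90AB1 and HSP90AA1, the constitutive HSP70 gene HSPA8 and the mitochondrial chaperonin gene HSPD1. That order of the leading 5 was the same in both groups, and neighbours in it did not overlap, with the exception of HSP90AB1 and HSP90AA1 in vehicle libraries (521.8 to 599 and 440.1 to 528 FPKM). The stress-inducible HSPA6 was at the other end, with 13, 13 and 7 fragments in CBD libraries and 3, 8 and 12 in vehicle libraries. It was the 1 gene of the 52 below the filter on low values, a mean of 1 FPKM over the 6 libraries. HSPB8, a small heat shock protein gene that works with BAG3, passed that filter through its vehicle level, at 0.988 ± 0.0933 FPKM in CBD libraries and 1.19 ± 0.219 FPKM in vehicle libraries (SD, n = 3 each).

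**Figure D1:**
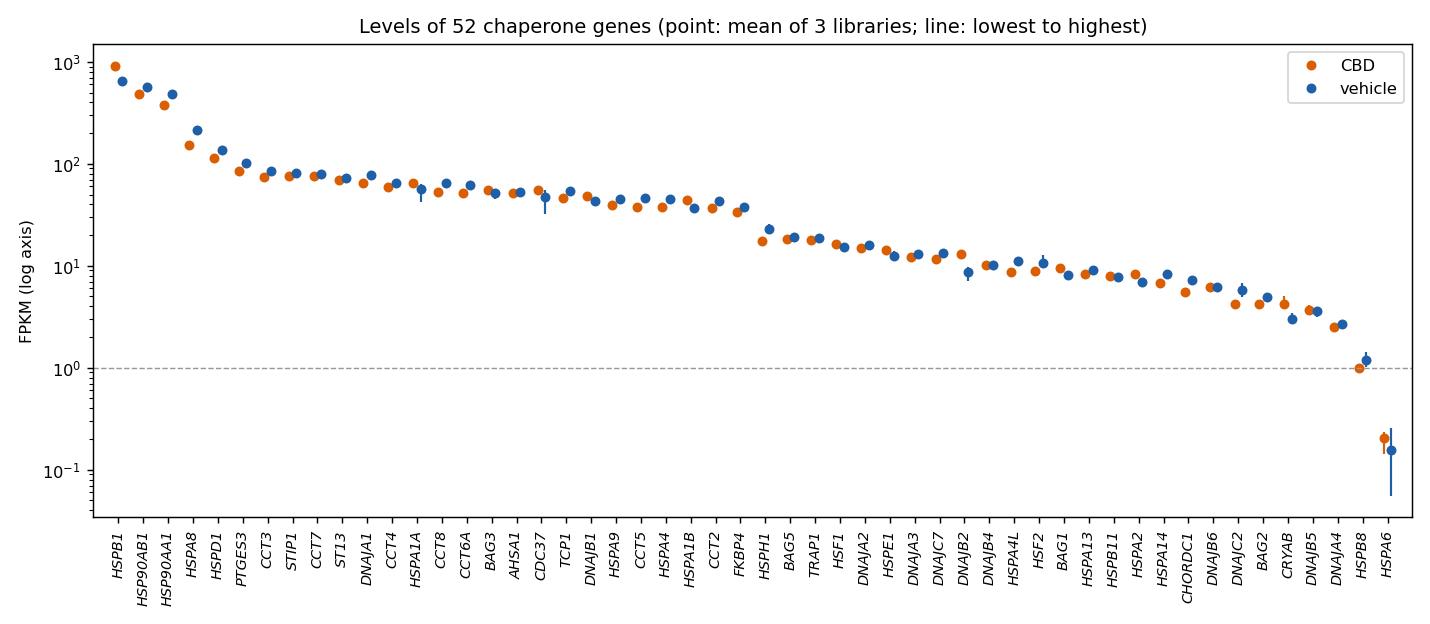
Mean FPKM of the 52 chaperone genes on a log axis, ordered by level, with CBD in orange on the left and vehicle in blue on the right of each pair; lines run from the lowest to the highest of 3 libraries, and the dashed line marks 1 FPKM. HSPB1 leads, its CBD mean of 908 FPKM above its vehicle mean of 653 FPKM, while HSP90AB1, HSP90AA1, HSPA8 and HSPD1 show the opposite order.

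Compared with vehicle, CBD libraries had more HSPB1 and less HSPA8 transcript, and these were the 2 chaperone genes that passed the test over the whole table. HSPB1 had 896, 921 and 908 FPKM in CBD libraries, against 637, 695 and 626 FPKM in vehicle libraries. Its 3 CBD values lay above all 3 vehicle values, by a ratio of means of 1.39. HSPA8 had 157, 149 and 150.5 FPKM in CBD libraries, against 229.6, 202 and 215 FPKM in vehicle libraries, with a ratio of means of 0.705 and again no overlap. Differences were taken in log2(FPKM + 1), where changes of low genes appear too small. By that measure HSPB1 rose by 0.48 ± 0.06 (SE; limma adjusted p = 0.0452) and HSPA8 changed by -0.50 ± 0.06 (limma adjusted p = 0.0452). Among the 51 tested genes, 1 rose and 1 fell, or 1.96% each way, where 0.256% of all 12517 tested genes rose and 0.0959% fell.

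Both calls depended on the processing and on the libraries used. With the GC trend removed, that is, after a smooth trend in transcript GC content had been subtracted within each library, HSPB1 stood at 0.24 (limma adjusted p = 0.0995) and HSPA8 at -0.45 (limma adjusted p = 0.0586). Neither passed with the replicate number as a block (limma adjusted p = 0.0889 for HSPB1 and 0.0808 for HSPA8), without an intensity trend in the fit (0.0649 for each), with the same FPKM sum per library (0.0528 for each) or without a filter on low values (0.171 for HSPB1 and 0.134 for HSPA8). Both were also lost when CBD replicate 1 (limma adjusted p = 0.1603 for each), CBD replicate 2 (0.198), CBD replicate 3 (0.177) or vehicle replicate 3 (0.167) was left out. Without CBD replicate 1, CBD replicate 2 or vehicle replicate 3, limma called 0 of all 12517 tested genes. Without CBD replicate 3 it called 1 higher and 0 lower. It also called 0 genes with the block and 0 without a filter on low values. Without the intensity trend it called 0 higher and 1 lower. With the same FPKM sum it called 2 in each direction, and with the GC trend removed 4 in each. These losses are therefore not particular to HSPB1 and HSPA8. Without vehicle replicate 2 the counts were 7 higher and 20 lower of the 51 genes, where 10.1% and 8.66% of all tested genes were called. Vehicle replicate 1, the library that stood apart, was the vehicle value farthest from the CBD mean for 31 of the 51 genes, but both calls held without it (limma adjusted p = 0.0494). The direction of HSPB1 and of HSPA8 held in all 23 alternative settings, over which the limma adjusted p ran from 0.00372 to 0.341 for HSPB1 and from 0.00372 to 0.252 for HSPA8.

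Most other chaperone genes had small negative differences that did not pass. Of the 51, 36 had a negative difference and 15 a positive one, with a median of -0.13 against -0.01 for all tested genes. The 3 CBD values lay wholly below the 3 vehicle values for 26 genes (51%, against 21.9% of all tested genes) and wholly above for 8 (15.7%, against 18.7%); for 17 the groups overlapped. A limma adjusted p under 0.10 was found for 19 lower genes (8.39% of all genes) and 7 higher ones (8.56%). An unadjusted limma p under 0.05 went with a negative difference for 22 genes (43.1%, against 16% of all genes) and with a positive one for 7 (13.7%, against 15.4%). On fragments recovered from the FPKM values, limma-voom called 18 lower and 6 higher, where it called 6.68% and 7.26% of all genes. Together the 52 genes took 1.27% to 1.31% of counted fragments in CBD libraries and 1.39% to 1.47% in vehicle libraries. Without HSPB1 those shares were 1.11% to 1.15% with CBD and 1.27% to 1.36% with vehicle.

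**Figure D2:**
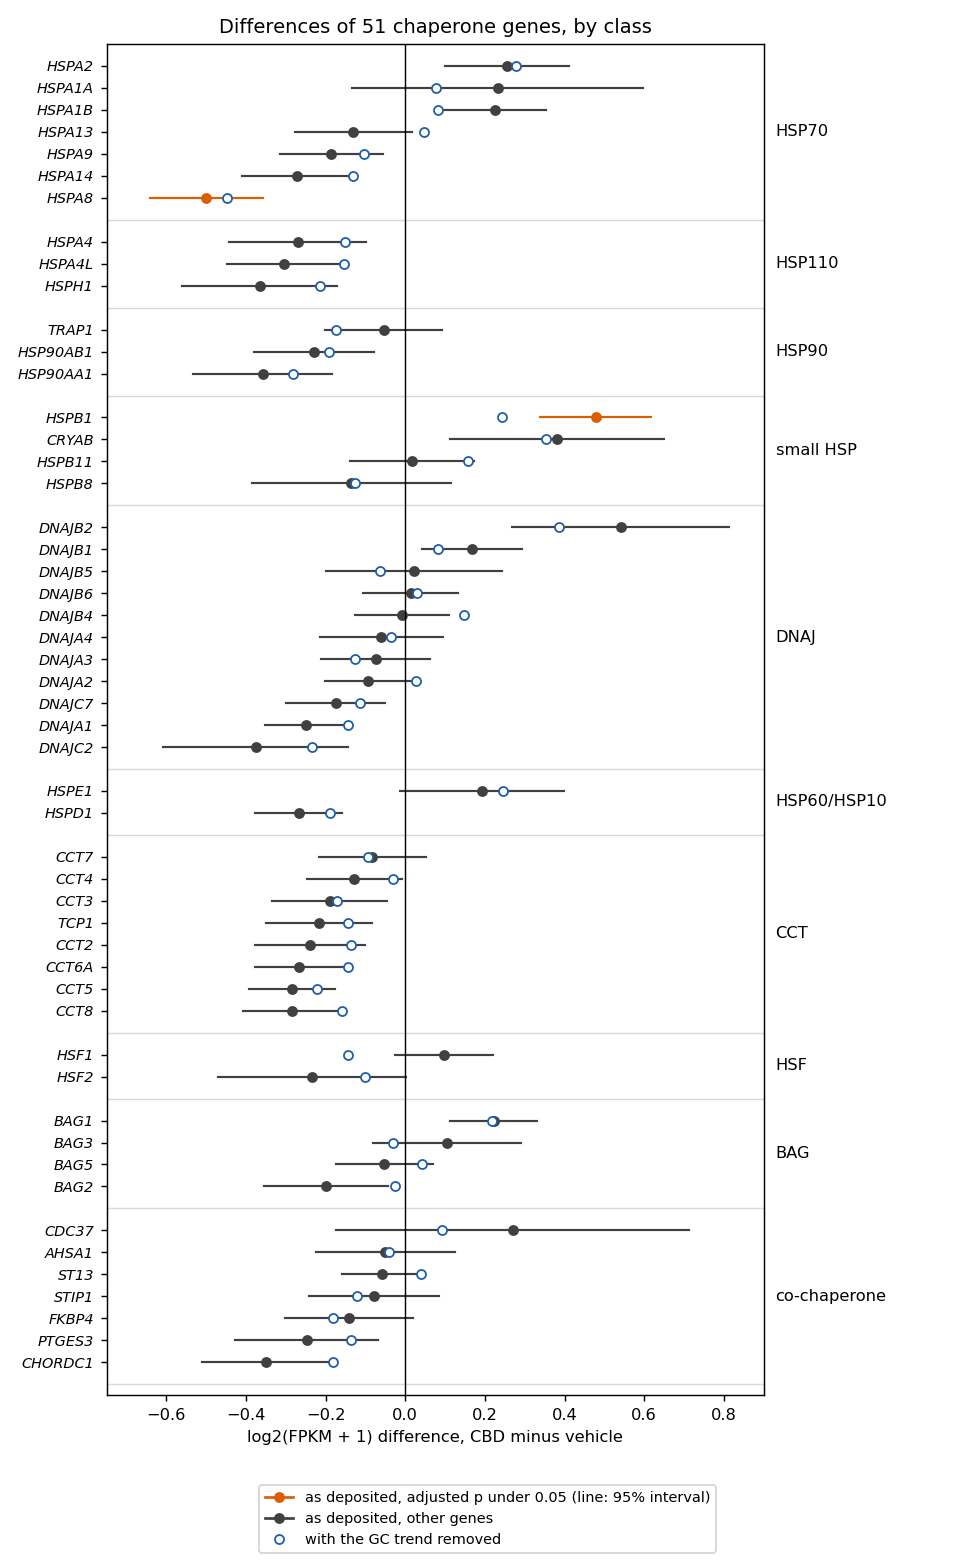
Difference in log2(FPKM + 1), CBD minus vehicle, of the 51 tested chaperone genes by class; filled points are the fit to the deposited values with a 95% interval, orange where the limma adjusted p was under 0.05, and open points the fit after correction of every library for transcript GC content. HSPB1 at 0.48 and HSPA8 at -0.50 are the orange points, and all 8 CCT subunits lie left of 0 in both fits.

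HSF1 binds heat shock elements, inverted repeats of the unit NGAAN, in the promoters of its targets. The 250 bases upstream of annotated starts (RefSeq, GRCh38.p14) were searched on both strands for pairs of units, GAANNTTC or TTCNNGAA, and for runs of 3, GAANNTTCNNGAA or TTCNNGAANNTTC, each of which contains 2 overlapping pairs. Windows were at hand for 45 of the 52 genes (63 windows, as some genes have several starts). A run of 3 was found in 7 of those windows, 1 each for CHORDC1, DNAJB6, HSP90AA1, HSP90AB1, HSPA6, HSPA8 and HSPD1, or 11.1% against 0.441% of all 35116 windows. A pair was found in 19 windows (30.2%, against 11.6% of all), and TATAA on the gene's strand in 11 (17.5%, against 13.6%). These matches describe the letters of the windows and say nothing of binding in these cells. The stretches below, each of 30 bases, show the runs of 3 in those 7 genes and the single pair in HSPB1 and HSPA1A, 5′ to 3′ on the gene's strand, with every base of a match in capitals (the final capitals in HSP90AA1 begin a further match).
HSPA8 distal run, chr11:123062345-123062374, minus strand: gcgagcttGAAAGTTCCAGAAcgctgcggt
HSPA8 proximal run, chr11:123062170-123062199, minus strand: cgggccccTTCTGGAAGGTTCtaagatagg
HSP90AA1, chr14:102087111-102087140, minus strand: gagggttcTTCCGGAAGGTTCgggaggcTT
HSP90AB1 distal run, chr6:44247770-44247799, plus strand: ggagcaggTTCTGGAAGATTCatgggctcc
HSP90AB1 proximal run, chr6:44247823-44247852, plus strand: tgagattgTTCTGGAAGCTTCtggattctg
HSPD1, chr2:197500061-197500090, minus strand: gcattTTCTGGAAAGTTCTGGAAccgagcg
CHORDC1, chr11:90223088-90223117, minus strand: cgcgaccgGAAAATTCGCGAAGGTTCCTGA
DNAJB6, chr7:157336865-157336894, plus strand: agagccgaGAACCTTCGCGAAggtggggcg
HSPA6, chr1:161524458-161524487, plus strand: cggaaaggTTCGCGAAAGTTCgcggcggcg
HSPB1, single pair, chr7:76302480-76302509, plus strand: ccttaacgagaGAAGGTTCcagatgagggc
HSPA1A, single pair, chr6:31815426-31815455, plus strand: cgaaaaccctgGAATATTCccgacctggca
Among the genes with a run of 3, HSPA8 fell. HSP90AA1, HSP90AB1, HSPD1 and CHORDC1 had differences of -0.36, -0.23, -0.27 and -0.35 that did not pass. Each of these, HSPA8 included, lay lower without overlap and is under 50% GC. Of all tested genes under 50% GC, 36.4% lay lower without overlap. DNAJB6 stood at 0.01, and HSPA6 was too low to test. HSPB1, with 1 pair and no run of 3, rose. Whether the motifs play a part in these differences was not tested.

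HSF1 itself, the master regulator of the heat shock response, had 16.5, 16.3 and 16.6 FPKM in CBD libraries, against 15.5, 16.0 and 14.4 FPKM in vehicle libraries. The CBD values lay just above the vehicle values, a difference of 0.10 ± 0.05 (limma adjusted p = 0.235). It turned to -0.14 with the GC trend removed. HSF2, a related factor with roles in development, had 8.38, 9.05 and 9.42 FPKM in CBD libraries, against 12.6, 9.58 and 10.1 FPKM in vehicle libraries; the groups did not overlap, and the difference of -0.23 ± 0.10 did not pass (limma adjusted p = 0.161, and -0.10 with the GC trend removed). Neither factor was called.

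Within the HSP70 class, the constitutive HSPA8 fell while the inducible pair had positive differences that did not pass. HSPA8 (chr11:123057489-123063230, GRCh38, minus strand) encodes the housekeeping cytosolic HSP70, HSC70. Its exons overlap those of 2 small nucleolar RNA genes that are at 0 in every library, and its 17 annotated pseudogenes together held 13 to 31 fragments per library, or 0.0997% of its own. HSPA1A (chr6:31815464-31817946) and HSPA1B (chr6:31827735-31830255) encode the classic stress-inducible HSP70. They share 67.3% of the 100-base windows of HSPA1A transcripts, so the division of reads between them is uncertain. HSPA1B also shares 36.5% of its exon bases with AL671762.1, a gene on the same strand with a mean of 0 FPKM. HSPA1A had 66.2, 68.3 and 60.6 FPKM in CBD libraries, against 42.1, 63.3 and 62.9 FPKM in vehicle libraries. Vehicle replicate 1 was the low one and the other vehicle libraries lay within the CBD range, and the difference of 0.23 ± 0.15 did not pass (limma adjusted p = 0.330; 95% interval -0.13 to 0.60). HSPA1B had 43.7, 45.0 and 42.4 FPKM in CBD libraries, against 35.6, 39.4 and 36.8 FPKM in vehicle libraries, without overlap and at a difference of 0.23 ± 0.05 (limma adjusted p = 0.0699). Summed over both genes, the level was 110.0, 113 and 103 FPKM in CBD libraries, against 77.7, 103 and 99.7 FPKM in vehicle libraries, with CBD replicate 3 at 102.9 FPKM and vehicle replicate 2 at 102.7 FPKM nearly meeting. With the GC trend removed, HSPA1A and HSPA1B stood at 0.08 and 0.08, and HSPA1A at -0.07 when vehicle replicate 1 was also left out.

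HSPA2, a testis-enriched HSP70 also known from keratinocytes, had 8.66, 8.45 and 8.05 FPKM in CBD libraries, against 7.25, 7.12 and 6.23 FPKM in vehicle libraries. All CBD values exceeded all vehicle values, and the difference of 0.26 ± 0.07 (limma adjusted p = 0.0753) was as large with the GC trend removed (0.28; limma adjusted p = 0.105). HSPA9 encodes mortalin, the HSP70 of the mitochondrial matrix that pulls proteins through the import channel. It had 41.4, 38.7 and 38.4 FPKM in CBD libraries, against 47.2, 43.0 and 45.0 FPKM in vehicle libraries, lower without overlap, at -0.19 ± 0.05 (limma adjusted p = 0.0889, and -0.10 with the GC trend removed). HSPA14, an HSP70-like partner of the ribosome, had 6.72, 6.44 and 7.17 FPKM in CBD libraries, against 8.81, 8.01 and 8.33 FPKM in vehicle libraries and a difference of -0.27 ± 0.06 (limma adjusted p = 0.0621, and -0.13 with the GC trend removed). A second gene identifier that carried the HSPA14 symbol in GENCODE 29 and is now called MSANTD7 shares exons with it and was left out. HSPA13, a microsomal HSP70 relative, stood at 8.28 ± 0.123 FPKM in CBD libraries and 9.17 ± 0.736 FPKM in vehicle libraries (difference -0.13, limma adjusted p = 0.197; 0.05 with the GC trend removed). HSPA6 had 0.230, 0.237 and 0.143 FPKM in CBD libraries, against 0.0554, 0.154 and 0.258 FPKM in vehicle libraries, with full overlap (two-sided exact permutation p = 0.7; the smallest possible with 3 libraries a group is 0.1).

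The HSP110 genes encode large HSP70 relatives that release ADP from HSP70 and so drive its cycle. All 3 lay lower without overlap in the CBD libraries, and limma called 0 (all 3 had an unadjusted p under 0.05, and limma-voom called all 3). All are under 50% GC, and of all tested genes under 50% GC 36.4% lay lower without overlap, 27% were lower at an unadjusted p under 0.05 and 11.6% were called lower by limma-voom. HSPH1, the heat-inducible one, had 17.8, 16.5 and 18.2 FPKM in CBD libraries, against 25.7, 21.0 and 21.9 FPKM in vehicle libraries, a difference of -0.37 ± 0.08 (limma adjusted p = 0.0636, and -0.21 with the GC trend removed). HSPA4L had 8.67, 8.72 and 8.99 FPKM in CBD libraries, against 12.01, 10.4 and 10.9 FPKM in vehicle libraries (-0.30 ± 0.06; limma adjusted p = 0.0604, and -0.15 with the GC trend removed). HSPA4 had 37.9, 35.5 and 39.2 FPKM in CBD libraries, against 49.4, 41.7 and 45.5 FPKM in vehicle libraries (-0.27 ± 0.07; limma adjusted p = 0.0792, and -0.15 with the GC trend removed). Vehicle replicate 1 was the highest library for each of the 3. Their median of -0.30 became -0.15 with the GC trend removed, at GC contents of 39.3%, 39.3% and 42.2%.

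The cytosolic HSP90 pair lay lower with CBD, without a call, and the mitochondrial member overlapped between groups. HSP90AA1 encodes the inducible isoform and had 379, 364 and 380.3 FPKM in CBD libraries, against 528, 440.1 and 475 FPKM in vehicle libraries. The groups did not overlap, and the difference was -0.36 ± 0.07 (limma adjusted p = 0.0605), or -0.28 with the GC trend removed (limma adjusted p = 0.0955). HSP90AB1, the constitutive isoform, had 491, 475 and 471 FPKM in CBD libraries, against 599, 522 and 568 FPKM in vehicle libraries. Its difference of -0.23 ± 0.06 did not pass either (limma adjusted p = 0.0831, and -0.19 with the GC trend removed). The ratio of HSP90AA1 to HSP90AB1 was 0.772, 0.765 and 0.807 in CBD libraries, against 0.882, 0.844 and 0.837 in vehicle libraries, the inducible isoform thus taking a smaller share with CBD in each library. That ratio was picked after the values were seen and is not tested. TRAP1, the HSP90 of mitochondria, had 19.4, 16.6 and 17.9 FPKM in CBD libraries, against 18.4, 18.9 and 18.7 FPKM in vehicle libraries; the groups overlapped (-0.05 ± 0.06; limma adjusted p = 0.568, and -0.17 with the GC trend removed). TRAP1 shares 29.3% of its exon bases with the antisense gene DNASE1 (mean 1.91 FPKM), whose reads cannot be told apart without strand.

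HSP90 works through co-chaperones, of which 7 were examined and 0 were called by limma (2, or 28.6%, were lower at an unadjusted p under 0.05, against 16% of all genes, and limma-voom called 2 lower, against 6.68%). CHORDC1, a stress-sensing HSP90 partner, had 5.85, 5.08 and 5.57 FPKM in CBD libraries, against 7.76, 6.81 and 7.28 FPKM in vehicle libraries, without overlap, a difference of -0.35 ± 0.07 (limma adjusted p = 0.0588, and -0.18 with the GC trend removed). PTGES3, which encodes p23, the cofactor that holds HSP90 closed on its client, had 87.8, 80.5 and 86.2 FPKM in CBD libraries, against 111, 92.7 and 99.3 FPKM in vehicle libraries (-0.25 ± 0.08; limma adjusted p = 0.0936, and -0.14 with the GC trend removed). ST13, which encodes the HSP70-interacting protein HIP, lay lower by little, at 69.5 ± 0.760 FPKM in CBD libraries and 72.4 ± 1.63 FPKM in vehicle libraries (difference -0.06, limma adjusted p = 0.374; 0.04 with the GC trend removed). STIP1, the HOP adaptor between HSP70 and HSP90, stood at 76.0 ± 1.35 FPKM in CBD libraries and 80.6 ± 7.08 FPKM in vehicle libraries, the immunophilin gene FKBP4 at 33.7 ± 1.33 FPKM in CBD libraries and 37.3 ± 2.99 FPKM in vehicle libraries, and AHSA1, the activator of the HSP90 ATPase, at 51.2 ± 1.63 FPKM in CBD libraries and 53.2 ± 4.93 FPKM in vehicle libraries, all with overlap and limma adjusted p from 0.203 to 0.657. CDC37, the adaptor for kinases, had 56.3, 55.3 and 54.2 FPKM in CBD libraries, against 32.4, 55.0 and 53.3 FPKM in vehicle libraries. Vehicle replicate 1 alone was low, the other 2 vehicle libraries lay within or near the CBD range, and the difference of 0.27 ± 0.19 had the widest error of the 51 genes (limma adjusted p = 0.349, and 0.09 with the GC trend removed).

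Among the small heat shock proteins, HSPB1 held nearly all of the transcript. Its gene (chr7:76302544-76304295, plus strand) is 63.6% GC in its transcripts. CRYAB encodes alpha-B-crystallin, a close relative that forms mixed oligomers with HSPB1. It had 3.92, 5.07 and 3.77 FPKM in CBD libraries, against 2.68, 3.45 and 2.94 FPKM in vehicle libraries, higher without overlap, at 0.38 ± 0.11 (limma adjusted p = 0.0901), and 0.35 with the GC trend removed. CRYAB shares 20.6% of its exon bases with the antisense gene HSPB2 (mean 0.0288 FPKM). HSPB8 had 1.08, 0.982 and 0.898 FPKM in CBD libraries, against 1.01, 1.43 and 1.12 FPKM in vehicle libraries, and the groups overlapped (difference -0.13, limma adjusted p = 0.404; -0.13 with the GC trend removed). HSPB11, now named IFT25 for its part in transport along cilia, had 7.90 ± 0.289 FPKM in CBD libraries and 7.81 ± 0.658 FPKM in vehicle libraries (difference 0.02, limma adjusted p = 0.881; 0.16 with the GC trend removed). The ratio of HSPB1 to HSPA8 levels, per length, was 5.71, 6.20 and 6.04 in CBD libraries, against 2.78, 3.43 and 2.91 in vehicle libraries. It is given as a description of the 2 called genes.

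DNAJ proteins stimulate the HSP70 ATPase and choose its clients, and 0 of 11 were called by limma, with an unadjusted p under 0.05 for 2 higher and 3 lower and limma-voom calls for 1 higher and 2 lower. Over all tested genes an unadjusted p under 0.05 was found for 15.4% higher and 16% lower, and limma-voom called 7.26% and 6.68%. The abundant DNAJA1 had 63.9, 65.0 and 65.2 FPKM in CBD libraries, against 78.2, 74.8 and 78.4 FPKM in vehicle libraries. These groups were tight and well apart, at -0.25 ± 0.04 (limma adjusted p = 0.0553, and -0.14 with the GC trend removed). DNAJB1, the main heat-inducible HSP40, had 49.9, 48.4 and 46.1 FPKM in CBD libraries, against 40.9, 42.9 and 44.4 FPKM in vehicle libraries, higher without overlap (0.17 ± 0.05; limma adjusted p = 0.0981, and 0.08 with the GC trend removed). DNAJB1 and the antisense gene TECR (mean 27.9 FPKM) share 5.75% of DNAJB1's exon bases. The largest positive difference of the 51 genes was that of DNAJB2, which passes HSP70 clients to the proteasome. DNAJB2 had 13.7, 13.3 and 12.1 FPKM in CBD libraries, against 7.03, 9.81 and 9.33 FPKM in vehicle libraries, a ratio of means of 1.496 and a difference of 0.54 ± 0.12 (limma adjusted p = 0.0613). It stayed at 0.39 with the GC trend removed (limma adjusted p = 0.0970). Vehicle replicate 1 was again the lowest.

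DNAJC2, a ribosome-bound DNAJ that assists chains as they leave the ribosome, had 4.18, 4.31 and 4.08 FPKM in CBD libraries, against 6.81, 4.98 and 5.54 FPKM in vehicle libraries (-0.38 ± 0.10; limma adjusted p = 0.0765, and -0.23 with the GC trend removed). DNAJC7, which shuttles clients between HSP70 and HSP90, had 11.9, 11.1 and 11.8 FPKM in CBD libraries, against 13.6, 12.5 and 13.5 FPKM in vehicle libraries (-0.17 ± 0.05; limma adjusted p = 0.0913, and -0.11 with the GC trend removed). Both lay lower without overlap, and both share exon bases with antisense neighbours that are expressed. Of the remaining 6, DNAJA2 lay lower without overlap, at 14.9 ± 0.411 FPKM in CBD libraries and 16.0 ± 0.338 FPKM in vehicle libraries (difference -0.09, limma adjusted p = 0.201; 0.03 with the GC trend removed). The mitochondrial DNAJA3, DNAJA4, DNAJB4, DNAJB5 and the aggregation-blocking DNAJB6 overlapped between groups, with differences from -0.07 to 0.02 and limma adjusted p from 0.404 to 0.922.

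**Figure D3:**
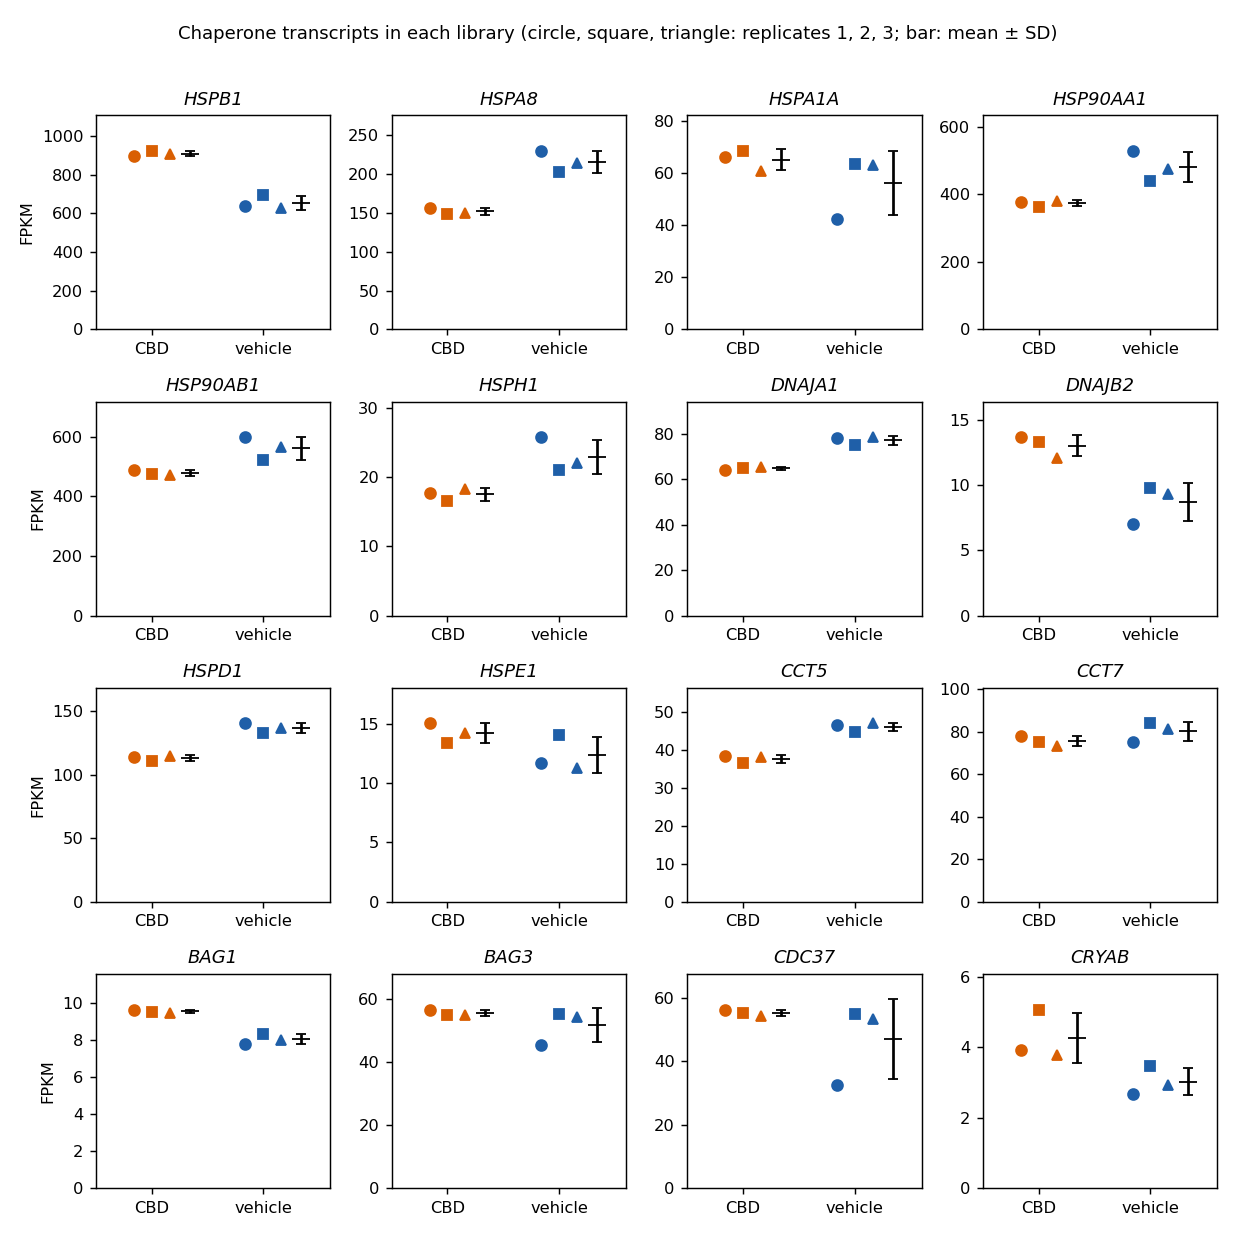
FPKM in each library for 16 chaperone genes, with CBD in orange on the left and vehicle in blue on the right; circles, squares and triangles are replicates 1, 2 and 3, and bars the mean ± SD. HSPB1 and HSPA8 separate in opposite directions, while in HSPA1A, BAG3 and CDC37 the circle of vehicle replicate 1 lies below every other library.

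In mitochondria HSPD1 (HSP60) forms the folding chamber and HSPE1 (HSP10) its lid. Their genes lie head to head on chromosome 2, with annotated starts 105 and 539 bases apart depending on the HSPD1 start. HSPD1 had 114, 111 and 115 FPKM in CBD libraries, against 140.2, 132 and 136 FPKM in vehicle libraries. The CBD values were lower without overlap, at -0.27 ± 0.05 (limma adjusted p = 0.0552), or -0.19 with the GC trend removed (limma adjusted p = 0.0886). HSPE1 had 15.03, 13.4 and 14.3 FPKM in CBD libraries, against 11.7, 14.1 and 11.3 FPKM in vehicle libraries, with overlap and on the other side of 0 (0.19 ± 0.09; limma adjusted p = 0.179; 95% interval -0.01 to 0.40). With the GC trend removed, HSPE1 stood at 0.25 (limma adjusted p = 0.233). The ratio of HSPD1 to HSPE1 was 7.57, 8.27 and 8.04 in CBD libraries, against 11.97, 9.40 and 12.1 in vehicle libraries. HSPE1 has 26 annotated pseudogenes that held 4.51% as many fragments as the gene, and HSPD1 has 17 that held 1.04%, so part of the reads of either may be placed elsewhere. The antisense pair also shares 14.2% of the exon bases of HSPE1, and the strand setting of the counting is not known, so reads there cannot be told apart. HSPE1-MOB4, a gene on the same strand with a mean of 0.0443 FPKM, shares 9.71% of them, and strand would not separate those reads. The HSPE1 level is therefore uncertain.

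The cytosolic chaperonin TRiC is built of 8 different subunits and folds actin and tubulin. All 8 subunit genes had a negative difference, 7 of them without overlap, and 0 were called by limma (7 had an unadjusted p under 0.05 and limma-voom called 5). Of all tested genes, 52.6% had a negative difference, 21.9% lay lower without overlap, 16% were lower at an unadjusted p under 0.05 and 6.68% were called lower by limma-voom. Among those under 50% GC, as all subunits other than CCT7 are, the shares were 78.8%, 36.4%, 27% and 11.6%. CCT5 had 38.2, 36.4 and 38.1 FPKM in CBD libraries, against 46.4, 44.7 and 46.9 FPKM in vehicle libraries (-0.28 ± 0.05; limma adjusted p = 0.0538, and -0.22 with the GC trend removed). CCT8 had 54.6, 52.7 and 52.6 FPKM in CBD libraries, against 68.8, 62.5 and 64.5 FPKM in vehicle libraries (-0.29 ± 0.05; limma adjusted p = 0.0558, and -0.16 with the GC trend removed). CCT6A had 52.6, 50.7 and 51.1 FPKM in CBD libraries, against 64.7, 60.5 and 61.3 FPKM in vehicle libraries (-0.27 ± 0.05; limma adjusted p = 0.0557, and -0.14 with the GC trend removed). In each of these the 3 vehicle values stood clear of the CBD values by more than the spread within either group. CCT2 had 39.3, 34.3 and 36.3 FPKM in CBD libraries, against 43.6, 42.7 and 43.8 FPKM in vehicle libraries (-0.24 ± 0.06; limma adjusted p = 0.0703, and -0.14 with the GC trend removed), and TCP1, the founding subunit, had 47.0, 45.5 and 46.1 FPKM in CBD libraries, against 57.6, 51.02 and 53.1 FPKM in vehicle libraries (-0.22 ± 0.06; limma adjusted p = 0.0761, and -0.14 with the GC trend removed). TCP1 shares 8.05% of its exon bases with the antisense gene ACAT2 (mean 34.5 FPKM). CCT5 shares 30.1% of its own with the antisense gene AC012640.4 (mean 0.0133 FPKM). CCT3 and CCT4 averaged 74.1 ± 4.30 FPKM in CBD libraries and 84.7 ± 4.06 FPKM in vehicle libraries, and 59.1 ± 1.98 FPKM in CBD libraries and 64.7 ± 2.29 FPKM in vehicle libraries, in that order (limma adjusted p = 0.101 and 0.139; differences of -0.19 and -0.13, and -0.17 and -0.03 with the GC trend removed). CCT7, the subunit with the smallest difference, had 78.2, 75.2 and 73.5 FPKM in CBD libraries, against 75.3, 84.0 and 81.4 FPKM in vehicle libraries, with overlap (-0.08 ± 0.06; limma adjusted p = 0.343, and -0.09 with the GC trend removed). Levels per length differed little among subunits, the highest being 2.06 times the lowest in CBD libraries and 1.95 times in vehicle libraries. The summed level of the 8 was 448, 424 and 430.1 FPKM in CBD libraries, against 504, 492 and 504 FPKM in vehicle libraries. Their median difference of -0.23 became -0.14 with the GC trend removed, where all 8 stayed below 0 and 6 had an unadjusted p under 0.05. In that fit 6486 of all 12510 genes lay below 0. Lower at an unadjusted p under 0.05 were 10.1% of all genes and 9.85% of those under 50% GC.

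BAG proteins release nucleotide from HSP70 and link it to degradation or autophagy, and 0 of 4 were called by limma (1 higher and 1 lower had an unadjusted p under 0.05, against 15.4% and 16% of all genes, and limma-voom called 1 higher, against 7.26%). BAG1, which couples HSP70 to the proteasome, had 9.64, 9.53 and 9.44 FPKM in CBD libraries, against 7.80, 8.32 and 7.99 FPKM in vehicle libraries, higher without overlap (0.22 ± 0.05; limma adjusted p = 0.0605), and the same 0.22 with the GC trend removed (limma adjusted p = 0.0817). BAG3, the stress-induced partner of HSPB8 in selective autophagy, had 56.8, 55.0 and 55.1 FPKM in CBD libraries, against 45.6, 55.4 and 54.5 FPKM in vehicle libraries. Apart from the low vehicle replicate 1, BAG3 values of both groups lay within a few FPKM of each other, and the difference of 0.11 ± 0.08 (limma adjusted p = 0.382) turned to -0.03 with the GC trend removed. BAG2, an inhibitor of the ubiquitin ligase CHIP, stood at 4.21 ± 0.104 FPKM in CBD libraries and 4.99 ± 0.422 FPKM in vehicle libraries (difference -0.20, limma adjusted p = 0.104; -0.03 with the GC trend removed), without overlap, and shares 42.7% of its exon bases with the antisense gene RAB23 (mean 3.28 FPKM). BAG5 stood at 18.3 ± 0.853 FPKM in CBD libraries and 19.0 ± 0.497 FPKM in vehicle libraries, with overlap (difference -0.05, limma adjusted p = 0.504; 0.04 with the GC trend removed).

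The sign of these differences ran with the GC content of the transcripts, here as across all genes (Spearman 0.68 over the 51 genes and 0.67 over 12510 genes with a GC value; genes are not independent and share the libraries). Of 35 chaperone genes under 50% GC, 31 lay below 0 (88.6%, against 78.8% of all tested genes under 50% GC). Among the 35, 26 lay below without overlap (74.3%, against 36.4% of such genes) and 1 lay above without overlap (3.25% of such genes). Of the 16 tested at 50% or more, 11 lay above 0 (68.8%, against 78.2% of all tested genes at 50% GC or more). Among the 16, 7 lay above without overlap (43.8%, against 37% of such genes) and 0 below without overlap (4.9% of such genes). Whether GC content plays a part in the differences between the groups was not tested beyond this correction. With the GC trend removed, the sign turned for 8 genes, none of them called. HSPA13 (0.05), DNAJA2 (0.03), DNAJB4 (0.15), BAG5 (0.04) and ST13 (0.04) were then above 0, and HSF1 (-0.14), BAG3 (-0.03) and DNAJB5 (-0.06) below it. In all, 34 of the 51 lay below 0 and the median was -0.10 (all genes -0.0054). Limma then called 0 chaperone genes, where it called 0.032% of all genes in each direction, and an adjusted p under 0.10 was left for 5 lower (1.56% of all genes) and 3 higher (1.45%). An unadjusted p under 0.05 was then found for 23 lower (45.1%, against 10.1% of all genes) and 7 higher (13.7%, against 8.22%).

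**Figure D4:**
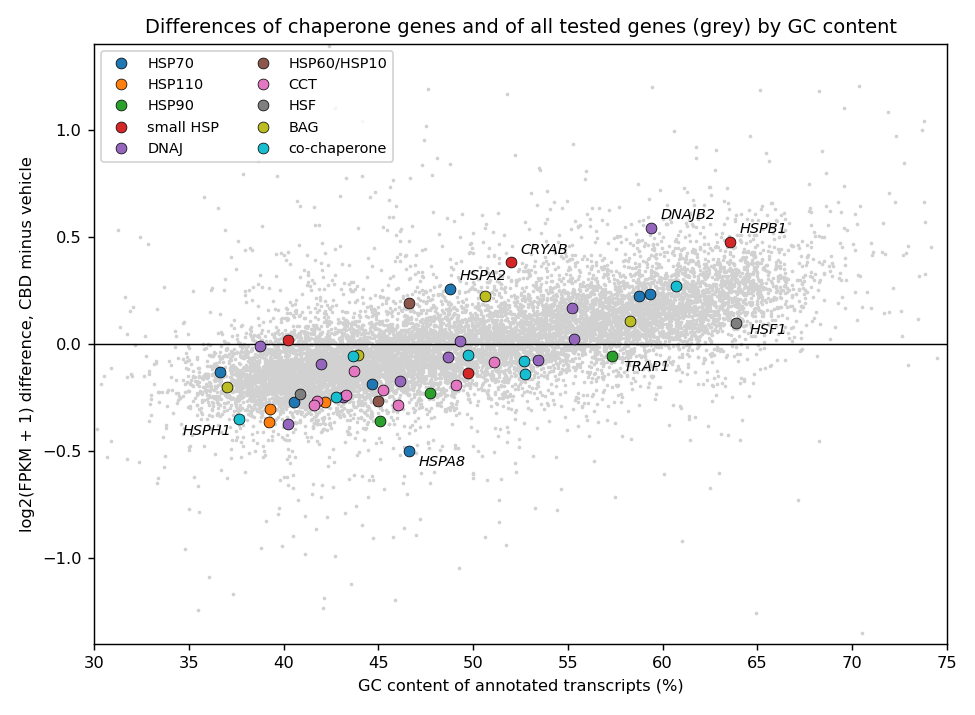
Difference in log2(FPKM + 1), CBD minus vehicle, against transcript GC content for 51 chaperone genes (coloured by class) and all tested genes (grey; 24 of 12517 lie outside the axes). Grey and coloured points run upward from left to right, with HSPA8 at 46.6% GC and a difference of -0.50 as the lowest coloured point and DNAJB2 at 59.4% and 0.54 as the highest.

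A wider list of 65 proteostasis genes (prefoldin, further HSP90 and HSP70 cofactors, other DNAJ genes, mitochondrial import and proteases, further heat shock factors) was read beside the chaperones. Of the 63 tested, limma called 0; 9 higher (14.3%, against 15.4% of all genes) and 12 lower (19%, against 16%) had an unadjusted p under 0.05, and limma-voom called 3 and 3 (4.76% each, against 7.26% and 6.68%). The median difference was -0.0024, with 29 above 0 and 34 below. The smallest adjusted p values belonged to both directions. URI1, a prefoldin-like protein, stood at 12.1 ± 0.239 FPKM in CBD libraries and 15.2 ± 1.32 FPKM in vehicle libraries (difference -0.30, limma adjusted p = 0.0636; -0.19 with the GC trend removed). DNAJB14, a membrane-bound DNAJ, stood at 5.36 ± 0.180 FPKM in CBD libraries and 6.40 ± 0.328 FPKM in vehicle libraries (difference -0.22, limma adjusted p = 0.0738; -0.03 with the GC trend removed), and the cyclophilin gene PPID, an HSP90 partner, at 10.98 ± 0.589 FPKM in CBD libraries and 13.4 ± 1.26 FPKM in vehicle libraries (difference -0.26, limma adjusted p = 0.0846; -0.12 with the GC trend removed). On the higher side were FKBP8, an immunophilin of the mitochondrial surface, at 114 ± 1.84 FPKM in CBD libraries and 90.8 ± 10.9 FPKM in vehicle libraries (difference 0.33, limma adjusted p = 0.0757; 0.07 with the GC trend removed), and SERPINH1, the collagen chaperone HSP47, at 120.1 ± 4.60 FPKM in CBD libraries and 104 ± 3.76 FPKM in vehicle libraries (difference 0.20, limma adjusted p = 0.0763; 0.04 with the GC trend removed). TOMM34, which links HSP70 and HSP90 to mitochondrial import, stood at 27.8 ± 1.43 FPKM in CBD libraries and 32.0 ± 1.27 FPKM in vehicle libraries (difference -0.20, limma adjusted p = 0.0846; -0.25 with the GC trend removed). All 6, picked for their small adjusted p, were without overlap. Of the 63 tested, 7 lay higher without overlap (11.1%, against 18.7% of all genes) and 15 lower (23.8%, against 21.9%).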

How the data were processed

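Fragments were counted per gene in 6 libraries, and the authors deposited 1 table of FPKM values for 58735 genes, 1 column per library, per the file headers. Alignment and counting tools are listed in the submitters' processing notes as HISAT2 2.0.5 with featureCounts 1.5.0-p3; genome build, annotation, strand setting and filters are not given in the sources used here. Groups and replicate numbers were taken from the titles, in which the vehicle libraries are named NC. The free-text description numbers the cell line differently in each sample, and the cell line tag, HOK-16B for all, was used.

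Gene names, spans, exon-union lengths and GC content came from GENCODE 29 (GRCh38), which held every gene identifier. Multiplying FPKM by these lengths gave whole fragments for 100% of values (tolerance 0.01), so 3 fragments equal 0.126 to 0.145 FPKM (CBD) and 0.131 to 0.153 FPKM (vehicle) for a gene of 1 kb, a limit of counting error only. Replicates differed by more than sampling noise (chi-square per gene 3.09 to 3.22 among CBD and 4.75 to 18.4 among vehicle pairs).

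Differences are CBD minus vehicle on log2(FPKM + 1), fitted with limma 3.58.1 (R 4.3.3; group as the only term, intensity trend) over the 12517 genes with a mean of at least 1 FPKM, two-sided, Benjamini-Hochberg adjusted over all of them at 0.05. The GC alternative removed a loess trend (span 0.3) in transcript GC content from each library. Tables and plots used Python 3.11.15. The chaperone genes, the lists and the promoter motifs were chosen with earlier results of these data known. Values per library are given for a preset panel of 14 genes and for each gene with a limma adjusted p under 0.10. The promoters of HSP90AA1, HSP90AB1, DNAJB6, HSPA6 and CHORDC1, and the values of TRAP1, CDC37, CCT7, HSPA6, HSPB8 and HSF2, were added after seeing values. FPKM are relative, so an abundant class that moves shifts all other genes.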

Additional observations from a re-analysis of the deposited data

How the results depend on the processing

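Each result was recomputed under 23 alternatives, of which limma-voom on recovered fragments and the GC correction without each library were chosen after seeing the data. Counts are given as higher and lower. For the chaperone genes (1 and 1 as reported) they were 6 and 18 with limma-voom, where 7.26% and 6.68% of all genes were called. At a mean FPKM of at least 5 they were 4 and 12 (5.87% and 4.19% of all genes). After quantile normalization they were 1 and 2 (0.431% and 0.152%). They were 0 and 0 without a filter on low values, without the intensity trend, with the same FPKM sum per library and with the GC trend removed. Each of those settings called at most 0.032% of all genes in either direction. Leaving out 1 library gave 0 to 7 and 0 to 20, where 0% to 10.1% and 0% to 8.66% of all genes were called. With the GC trend also removed, it gave 0 to 0 in both directions. Those fits called 0 genes in the whole table, apart from 1 lower gene without vehicle replicate 2. Their counts are therefore not particular to the chaperone genes. For the other proteostasis genes (0 and 0 as reported) limma-voom gave 3 and 3. A mean FPKM of at least 5 gave 1 and 1, while leaving out 1 library gave 0 to 7 and 0 to 8. The shares of all genes called in these settings are those given above. With the replicate number as a replicate block 0 and 0 chaperone genes were called, and 0 genes in the whole table. The same held with the block and the GC trend removed. HSPB1 and HSPA8 had limma adjusted p of 0.0889 and 0.0808 with the block alone. The numbers are no sign of pairing, since libraries of the same number correlated in their deviations at -0.0027, 0.0523 and 0.0235.

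Of the 30 genes chosen by the naming rule, 27 kept their direction in every alternative run for them (CRYAB and DNAJC2 fall below a mean of 5 FPKM and had no value there). HSF1 reversed to -0.14 with the GC trend removed, with or without the block, and to -0.146, -0.133 and -0.15 when CBD replicate 1, 2 or 3 was also left out, and -0.075, -0.18 and -0.18 when vehicle replicate 1, 2 or 3 was. BAG3 reversed to -0.031 with the GC trend removed, with or without the block, and to -0.042, -0.0204 and -0.029 when CBD replicate 1, 2 or 3 was also left out, and -0.079 and -0.017 when vehicle replicate 1 or 2 was. HSPA1A reversed to -0.069 with the GC trend removed and without vehicle replicate 1. The cause was not tested. The 2 count models planned for recovered fragments were not run because the deposited unit is FPKM, and limma-voom stood in for them. Depth limits HSPA6 (3 to 13 fragments per library) and HSPB8 (53 to 90).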
